A study of Mus musculus with 6 samples.

Results

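The epidermal differentiation complex is a run of genes on mouse chromosome 3 that encode proteins of the outermost skin layer, and it is flanked on both sides by genes of the S100 family. Its members were compared here between J110 and SSM3 cells, a pair of mouse mammary tumour lines. Genes were chosen by name among the protein-coding genes of the deposited table: every Lce, Sprr and numbered S100a gene, and Flg, Flg2, Lor, Ivl, Hrnr, Rptn, Tchh and Crct1. This gave 57 of the 52636 genes, all of them between positions 90511034 and 93564643 of chromosome 3 (GRCm38, 3.05 Mb). They comprise 13 S100a genes, 21 Lce genes, 15 Sprr genes, 5 fused S100 genes (Flg, Flg2, Hrnr, Rptn, Tchh) and 3 other precursor genes (Lor, Ivl, Crct1). Lce1g was named as seen in J110 alone when the genes were chosen, so the difference between the lines was in view. The values of the members in the 2 lines are therefore given as a description, with no p-value for a member.

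RNA was taken from cultured cells, with 3 libraries of J110 and 3 of SSM3. J110 came from transgenic mice in which the mouse mammary tumour virus promoter drives an AIB1 (Ncoa3) cDNA, and SSM3 from mammary tumours of 129SvEv mice. Each is a single established line, and the cells received no treatment. Both were kept in DMEM/F12 with insulin and hydrocortisone, but J110 had less serum and less CO2, and SSM3 also had HEPES, L-glutamine, β-mercaptoethanol and holo-transferrin. The line and its culture conditions cannot be told apart. The sample labels name the line and replicate number and do not say whether the libraries came from separate cultures; the study calls them biological replicates.

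The libraries held from 4200785 to 5416305 counts. Each count is a read from the 3′ end of a transcript, so CPM (counts scaled to the size of the library, with TMM factors) do not depend on transcript length. Levels of different genes are set side by side on that basis. How reads that map to several genes were counted is not given, so the levels of genes that share sequence are less certain. The gene of the transgene did not mark its line. Ncoa3 had 110, 106 and 102 counts in J110 and 181, 199 and 186 in SSM3 (log2 fold change of SSM3 against J110 0.91, SE 0.12, edgeR adjusted p = 2.94e-06). A 3′ read that lies outside the transgene checks nothing, so J110 and SSM3 stand throughout for the libraries labelled J110 and SSM3, and every direction rests on those labels. Of 10 epithelial markers, Krt8 and Krt18 were abundant in both lines, while Epcam had 2, 1 and 7 counts in J110 and 2376, 2404 and 2412 in SSM3. Of the 10, 9 were higher in SSM3 and 1 was lower, which was Krt18 (1430 CPM in J110 and 970 CPM in SSM3). The summed level of the 10 was 2677 to 2767 CPM in J110 and 12929 to 14194 CPM in SSM3, mostly Krt19 in SSM3 (7412 CPM). A trace of the genes that mark the opposite line was found in every library, and it was strongest in J110 replicate 3 (0.281% of the level in SSM3 over 33 genes, against 0.0535% and 0.0474% in the other J110 libraries) and SSM3 replicate 2 (0.360% over 21 genes, against 0.141% and 0.0934%). These genes were picked for a high level in the opposite line and near absence in the line itself. The latter meant a low mean and 3 counts or fewer in some library, so the trace is low by this choice.

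Late in their differentiation, keratinocytes build a cornified envelope under the plasma membrane. Involucrin (Ivl) and the plakin proteins form its scaffold, and loricrin (Lor), the small proline-rich proteins (Sprr) and the late cornified envelope proteins (Lce) are crosslinked onto it by transglutaminases. The fused S100 proteins, such as filaggrin (Flg), join an S100 domain to long repeats and condense keratin filaments. S100 proteins are small EF-hand proteins that mostly act as dimers, which bind target proteins when calcium rises; several are made in many tissues besides skin, and some act outside the cell on receptors such as Ager and Tlr4. In the skin, AP-1, Klf4, Grhl and Ovol factors are known regulators of these genes.

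Promoter sequence of 6 members is shown first, 3 of them higher in SSM3 (Sprr1a, Ivl, Lce6a) and 3 lower (Lce1g, S100a4, S100a11), since these genes lie within the same 3.05 Mb and differ in opposite directions between the lines. Each stretch is the 120 bases before the transcript start in RefSeq (GRCm38.p6), written 5′ to 3′ on the gene's own strand. Capitals mark an AP-1 motif (TGANTCA) or a TATA box motif (TATAAA). Sprr1a is at chr3:92485882-92486001 (minus strand), Ivl at chr3:92573736-92573855 (minus), Lce6a at chr3:92621661-92621780 (minus), Lce1g at chr3:92752339-92752458 (minus), S100a4 at chr3:90603650-90603769 (plus) and S100a11 at chr3:93520376-93520495 (plus).
Sprr1a: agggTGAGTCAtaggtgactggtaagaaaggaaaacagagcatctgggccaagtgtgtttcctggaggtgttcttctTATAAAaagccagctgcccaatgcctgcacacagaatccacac
Ivl: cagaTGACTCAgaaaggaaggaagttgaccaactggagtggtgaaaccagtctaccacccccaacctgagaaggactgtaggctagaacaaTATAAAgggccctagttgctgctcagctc
Lce6a: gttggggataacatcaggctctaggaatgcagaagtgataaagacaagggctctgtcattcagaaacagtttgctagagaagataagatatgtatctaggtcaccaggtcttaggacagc
Lce1g: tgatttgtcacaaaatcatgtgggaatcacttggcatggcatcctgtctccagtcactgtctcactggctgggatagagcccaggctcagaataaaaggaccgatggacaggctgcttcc
S100a4: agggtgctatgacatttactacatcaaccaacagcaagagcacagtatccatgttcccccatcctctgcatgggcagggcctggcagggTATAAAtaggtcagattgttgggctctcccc
S100a11: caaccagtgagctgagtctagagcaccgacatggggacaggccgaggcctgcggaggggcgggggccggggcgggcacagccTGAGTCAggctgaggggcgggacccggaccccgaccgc

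Sprr1a and Ivl both held an AP-1 motif whose first base is 116 bases before the start, and a TATA box motif 43 and 29 bases before it. Sprr1a had a further AP-1 motif 146 bases before the start, just outside the stretch shown. S100a4 held the TATA box motif 31 bases before its start and no AP-1 motif. S100a11 held AP-1 motifs at 136 and 38 bases before its start, and 3 GC boxes (GGGCGG). Lce1g held none of the 3 motifs in the 250 bases before its start, and Lce6a held only TATAAA on the opposite strand, 218 bases before its start. Over the 51 members with a RefSeq promoter, both strands of 250 bases counted, TGANTCA was present in 16 (31.4%) and in 7.82% of all 27025 genes in the promoter table. TATAAA was present in 22 members (43.1%) against 14.3% of all genes, and GGGCGG in 5 (9.80%) against 35.4%. The 16 members with TGANTCA include Ivl, Lor, Sprr1a and S100a16, which were higher in SSM3, S100a11, which was lower, and 8 further Sprr genes, Flg, Flg2 and Rptn, whose counts were too low to test. A match says only that these letters are in the window. Genes of one family, such as the Sprr genes, are not independent of each other in these counts.

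Most of the complex had few or no counts in either line. No read was counted for 20 of the 57 members in any library, among them 11 Lce genes, 6 Sprr genes, Flg2, Hrnr and S100a5. A further 14 members had 3 counts or fewer in every library. Between those and a mean of 10 CPM lay 9 members, and 14 reached at least 10 CPM in a line. The 14 are S100a1, S100a4, S100a6, S100a8, S100a10, S100a11, S100a13, S100a14, S100a16, Ivl, Sprr1a, Sprr2a3, Lce1g and Lce6a. A gene without a count was not detectable at this depth, which does not show that it was off.

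The filter on low counts left 16 members: the 14 above, S100a3 and Lor. Of these, 9 were higher in SSM3 and 7 lower, and all 16 passed an adjusted p of 0.05 in edgeR, as did 77.9% of all 12284 genes tested (38.6% higher and 39.2% lower in SSM3). The libraries of the 2 lines did not overlap for any of the 16, nor for 79.6% of all genes tested. A fitted difference of at least 4-fold was seen in 10 of the 16 and in 21.7% of all genes. Since a member high in a single line passes the filter through that line, nothing is read from these shares. The median log2 fold change was 1.99 over the 16 members, -0.54 over the 10 S100a genes among them and -0.014 over all genes tested.

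**Figure D1:**
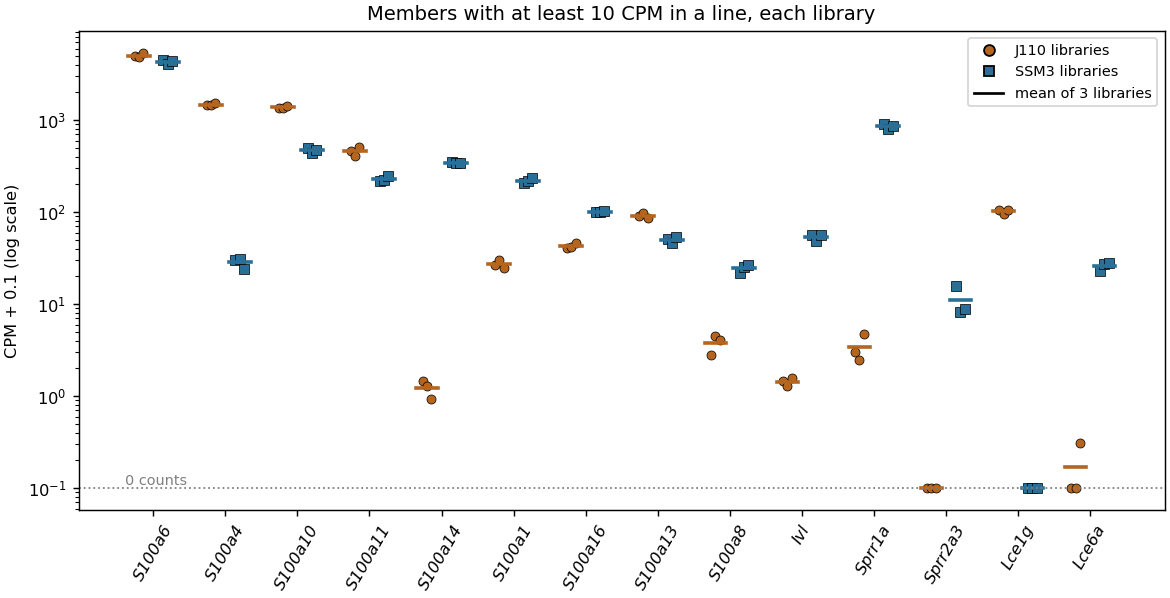
CPM plus 0.1 on a log scale in each library for the 14 members that reached a mean of 10 CPM in a line, with points for libraries and a line for the mean of 3. S100a6 lies between 4057 and 5369 CPM in every library, S100a4 and Lce1g are high in J110, and S100a14 and Sprr1a are high in SSM3; the dotted line marks 0 counts.

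Among the S100a genes, S100a6 was by far the most abundant in both lines. It encodes calcyclin, a partner of the Siah-interacting protein Cacybp, and lies at chr3:90612882-90624181 (plus strand, ENSMUSG00000001025). Its counts were 25554, 24275 and 25729 in J110 and 20189, 19106 and 22294 in SSM3, or 5032 ± 298 and 4330 ± 238 CPM (SD, n = 3). By CPM it ranked 12 to 13 among all genes in the J110 libraries and 8 to 9 in those of SSM3. The lowest J110 library, at 4801 CPM, lay above the highest SSM3 library, at 4496 CPM. Its log2 fold change of -0.22 (SE 0.07) was the smallest in size of the 16 members. It was -0.04 with library size in place of TMM, where the median of all genes moved to 0.16, and -0.17 without SSM3 replicate 2, and the call was lost in both.

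S100a4 was abundant in J110 and low in SSM3. It encodes a protein also known as metastasin, which binds the heavy chain of nonmuscle myosin IIA, and lies at chr3:90603771-90606045 (plus strand, ENSMUSG00000001020). There were 7539, 7312 and 7371 counts in J110 and 134, 146 and 122 in SSM3, which is 1479 ± 51.1 and 28.4 ± 3.60 CPM. S100a4 thus ranked 37 to 46 among all genes in J110 and 5201 to 5917 in SSM3, with no overlap. The fitted log2 fold change was -5.71 (SE 0.10), a 52.1-fold lower mean in SSM3. Its SSM3 level was at least 1.64% of the J110 mean in every library, against 0.141%, 0.360% and 0.0934% for the trace of opposite-line genes. With these SSM3 counts it could not have been among the genes picked for the trace, so the comparison decides nothing. S100a4 shares exons on its strand with the predicted gene Gm42674, and 48.1% of the 75-base windows in its last 400 bases also occur in another gene, so the split of reads between the pair is uncertain. With the counts of Gm42674 added, the log2 fold change was -5.75. S100a4 is also used as a fibroblast marker (Fsp1), and 5 of 7 other fibroblast markers had at most 3 counts in every library, with Col1a2, Lum and Pdgfrb at 0. The summed level of the 7 was 1.54 to 1.98 CPM in J110 and 0.398 to 1.91 CPM in SSM3.

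The neighbouring pair at the far end of the complex, S100a11 and S100a10, was also lower in SSM3. S100a10 (ENSMUSG00000041959, chr3:93555080-93564643, plus strand) encodes p11, the light chain of the annexin A2 tetramer, and is unusual among S100 proteins in not binding calcium. It had 7047, 6920 and 6759 counts in J110 and 2239, 2066 and 2351 in SSM3, or 1379 ± 27.5 and 468 ± 29.9 CPM. The lines were well separated, by 2.94-fold (log2 fold change -1.56, SE 0.07). S100a11 (ENSMUSG00000027907, chr3:93520488-93526287, plus strand) encodes calgizzarin, a partner of annexin A1. Counts of S100a11 were 2388, 2041 and 2421 in J110 and 986, 1062 and 1236 in SSM3, or 456 ± 50.9 and 230.3 ± 13.8 CPM, a 1.98-fold lower mean without overlap (log2 fold change -0.99, SE 0.08). Processed pseudogenes share 39.3% of its windows but had at most 1 count in any library.

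S100a14, S100a1, S100a16 and S100a8 were higher in SSM3. S100a14 (ENSMUSG00000042306, chr3:90526856-90528837, plus strand), an S100 gene of epithelia, was close to absent from J110 (7, 6 and 4 counts) and had 1556, 1595 and 1705 counts in SSM3. That is 1.12 ± 0.26 CPM against 341 ± 4.34 CPM, a 304-fold higher mean in SSM3 (log2 fold change 8.21, SE 0.14). The J110 libraries were all low, at 0.395%, 0.348% and 0.244% of the SSM3 mean, and in J110 replicate 3 this is under the 0.281% of the trace given above. S100a1 (ENSMUSG00000044080, chr3:90511034-90514392, minus strand), best known as a regulator of calcium handling in heart muscle, had 138, 153 and 119 counts in J110 and 933, 1028 and 1168 in SSM3. Its mean of 27.2 ± 2.77 CPM in J110 and 219 ± 12.4 CPM in SSM3 gives an 8.06-fold difference with no overlap (log2 fold change 3.01, SE 0.10). S100a16, a widely expressed member, had 211, 209 and 223 counts in J110 and 454, 471 and 518 in SSM3, or 42.8 ± 3.21 and 101 ± 1.55 CPM (log2 fold change 1.24, SE 0.09). All SSM3 libraries were above all J110 libraries for S100a16 as well.

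S100a13 and S100a3 were lower in SSM3. S100a13 (ENSMUSG00000042312, chr3:90514435-90524581, plus strand) takes part in the release of FGF1, which lacks a signal peptide. It had 474, 490 and 412 counts in J110 and 228, 218 and 267 in SSM3, or 91.4 ± 5.47 and 50.1 ± 3.47 CPM (log2 fold change -0.87, SE 0.09), and the lines did not overlap. S100a3, a gene of the hair cuticle, was low in both lines, with 54, 32 and 42 counts in J110 and 11, 12 and 19 in SSM3 (8.50 ± 2.05 and 2.93 ± 0.74 CPM, log2 fold change -1.52, SE 0.29). It also shares exons with Gm42674, and 13.1% of its windows occur in another gene. S100a2 had 2, 4 and 2 counts in J110 and 0, 0 and 7 in SSM3, so the lines overlapped, and S100a5 had no count.

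S100a8 and S100a9, whose products pair as calprotectin and are abundant in neutrophils, were found on opposite sides. S100a8 (ENSMUSG00000056054) had 14, 22 and 19 counts in J110 and 97, 119 and 132 in SSM3, or 3.67 ± 0.86 and 24.4 ± 2.46 CPM. The SSM3 libraries were all higher, by 6.64-fold on average (log2 fold change 2.73, SE 0.20). S100a9 (ENSMUSG00000056071) had 14, 8 and 15 counts in J110 and none in SSM3, which is 2.47 ± 0.80 CPM against 0. Set against 3 counts in each SSM3 library, S100a9 was at least 3.90-fold lower in SSM3, and it was too low to pass the filter. Of 13 neutrophil and other leukocyte markers, 11 had at most 3 counts in every library, and Elane, Ngp, Camp, Csf3r, Itgam and Adgre1 had none. The summed level of the 13 was 15.0 to 23.3 CPM in J110, mostly Cd68, and 1.39 to 2.0 CPM in SSM3. In bulk RNA, fewer cells of a type and less RNA per cell cannot be told apart.

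Summed over the 13 genes, S100a transcripts made up a larger share of J110 libraries. They held 43442, 41472 and 43116 counts in J110 and 26827, 25823 and 29819 in SSM3, or 0.802 ± 0.026% and 0.616 ± 0.026% of all counts. In CPM the sums were 8525 ± 418 and 5797 ± 272, a log2 ratio of -0.56, or -0.38 with library size only. No SSM3 library reached the lowest J110 library on either scale. The makeup of the sum differed too. S100a6 took 59.0 ± 0.59% of S100a counts in J110 and 74.7 ± 0.64% in SSM3, although its own level was lower in SSM3. S100a4, S100a10 and S100a11 filled most of the rest in J110, at 17.4%, 16.2% and 5.34% on average, and took 0.491%, 8.08% and 3.98% in SSM3. The places of S100a14 and S100a1 were reversed, from 0.0133% and 0.321% in J110 to 5.90% and 3.79% in SSM3.

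**Figure D2:**
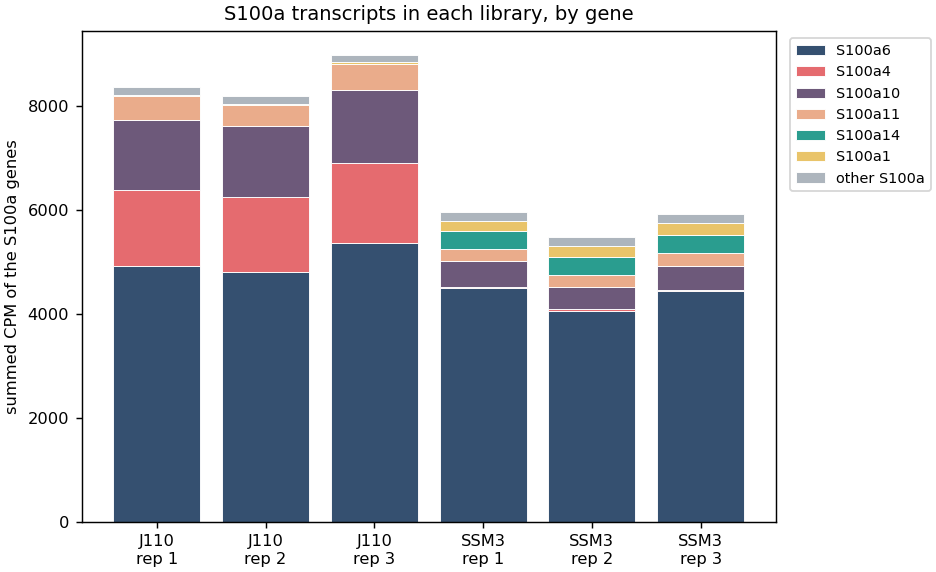
Summed CPM of the 13 S100a genes in each of the 6 libraries, as stacked bars from 0, with 6 genes drawn singly and the others together. The J110 bars (mean 8525 CPM) hold broad S100a4 and S100a10 segments. The SSM3 bars (mean 5797 CPM) hold a narrower S100a10 segment, very little S100a4, and S100a14 and S100a1 segments.

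Of the envelope scaffold genes, Ivl was higher in SSM3. Involucrin is among the first proteins laid down under the membrane, and its gene lies at chr3:92570902-92573735 (minus strand, ENSMUSG00000049128). It had 7, 6 and 7 counts in J110 and 252, 229 and 285 in SSM3, or 1.33 ± 0.14 and 53.8 ± 4.50 CPM. The lines did not overlap, and the SSM3 mean was 40.4-fold higher (log2 fold change 5.31, SE 0.19). The J110 libraries reached 2.51%, 2.21% and 2.71% of the SSM3 mean. Lor, the gene of the main protein of the mature envelope, was far lower than Ivl in SSM3, with 2, 2 and 0 counts in J110 and 14, 18 and 21 in SSM3 (3.71 ± 0.54 CPM in SSM3). Its ratio of SSM3 to J110 was 14, with an exact 95% interval of 5.16 to 53.3 that covers counting error only. Crct1, a small cysteine-rich protein gene between the Lce genes, ran the other way at low counts, with 15, 12 and 7 in J110 and 2, 1 and 1 in SSM3 (ratio of J110 to SSM3 8.04, interval 2.87 to 31.2).

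In SSM3, Sprr1a was the most abundant of the precursor genes. Its product, cornifin, bridges other envelope proteins, and the gene lies at chr3:92483952-92485895 (minus strand, ENSMUSG00000050359). There were 15, 12 and 22 counts in J110 and 4076, 3792 and 4320 in SSM3, which is 3.29 ± 1.16 and 858 ± 51.2 CPM. Sprr1a was thus second only to S100a6 among the 57 members in SSM3. The mean was 261-fold higher in SSM3 (log2 fold change 8.03, SE 0.13) and no library came near the other line. In J110 it stood at 0.337%, 0.277% and 0.535% of the SSM3 mean. The trace of opposite-line genes was lower in each library. With its J110 counts Sprr1a could not have been among the genes picked for the trace, so this comparison decides nothing. The nearby Sprr1b, whose product is closely related, had 1 count in J110 and 2 in SSM3 over all libraries. Sprr2a3 (ENSMUSG00000074445) was the only other Sprr gene to pass the filter, with no count in J110 and 71, 38 and 44 in SSM3 (10.9 ± 4.28 CPM). It was at least 18.2-fold higher in SSM3 when set against 3 counts in each J110 library. SSM3 replicate 1, at 15.8 CPM, stood apart from the 8.07 and 8.76 CPM of the other SSM3 libraries. Sprr2a3 shares 57.1% of its windows with Sprr2a1 and Sprr2a2, which are near-identical copies with 1 and 0 counts in all, so its counts may include reads of any of the 3. Sprr2k had 4, 5 and 5 counts in J110 and 0, 0 and 1 in SSM3 (ratio of J110 to SSM3 13.2, interval 2.02 to 560.1), and Sprr2h had 1, 2 and 2 in J110 and 1, 0 and 1 in SSM3. Sprr2e and Sprr2f had no count in J110, and had 2, 0 and 2 counts and 2, 1 and 0 counts in SSM3.

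Of the 21 Lce genes only 2 passed the filter, and they were on opposite sides. Lce1g (ENSMUSG00000027919, chr3:92750148-92752338, minus strand) had 544, 477 and 506 counts in J110 and none in any SSM3 library. That is 105, 94.3 and 106 CPM in the J110 libraries, with a mean of 101.6 ± 6.30. Against 3 counts in each SSM3 library it was at least 160.3-fold lower in SSM3. No 75-base window in its last 400 bases occurs in another gene. Lce6a (ENSMUSG00000086848, chr3:92620081-92621660, minus strand) was the reverse, with 0, 0 and 1 counts in J110 and 103, 128 and 140 in SSM3, or 22.9, 27.2 and 27.9 CPM. Its ratio of SSM3 to J110 was 392, with an interval of 69.9 to 15529, and its single J110 count was in replicate 3. The fitted log2 fold change of Lce6a was 8.14 (SE 0.41), and 9.99 without that library, where J110 had no count and the fitted value depends on the prior count. The remaining Lce genes were at the edge of detection or unseen. Lce1f had 8, 8 and 8 counts in J110 and 0, 1 and 0 in SSM3 (ratio of J110 to SSM3 22.7, interval 3.70 to 934), and Lce1h had 1, 4 and 3 in J110 and none in SSM3. Both lie near Lce1g, and their counts were too low to test. Of the windows of Lce1f, 9.20% also occur in other Lce genes, and those shared with Lce1g lie outside the last 400 bases of Lce1g.

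No fused S100 gene passed the filter. Tchh, the trichohyalin of hair follicles, had 0, 1 and 0 counts in J110 and 3, 4 and 4 in SSM3 (ratio of SSM3 to J110 11.6, interval 1.69 to 500.4). Flg, the filaggrin gene, had 1 count in all, Rptn had 2 in J110 and 1 in SSM3, and Flg2 and Hrnr had none. Over all 44 members outside the S100a group, the summed level was 113 ± 7.23 CPM in J110, mostly Lce1g, and 955 ± 57.8 CPM in SSM3, mostly Sprr1a. Of 7 keratinocyte markers, Krt1 had no count and Krt5 at most 2 in any library, and the summed level was 13.4 to 14.4 CPM in J110 and 672 to 686 CPM in SSM3, mostly Krt15. The part of the marker lists in these values was not tested.

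Along the chromosome, members higher in SSM3 and members lower in SSM3 were interleaved. S100a1 and S100a13 lie head to head with 0.043 kb between them, and S100a1 was higher and S100a13 lower in SSM3. S100a13 is followed after 2.27 kb by S100a14, which was higher. S100a4 and S100a6 are 6.84 kb apart, with log2 fold changes of -5.71 and -0.22. In the stretch of Lce and Sprr genes, Sprr1a, Ivl and Lce6a were all higher in SSM3, and Lce1g, 128 kb beyond Lce6a, was seen in J110 alone. S100a11 and S100a10, 28.8 kb apart and 768 kb beyond Lce1g, were both lower.

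**Figure D3:**
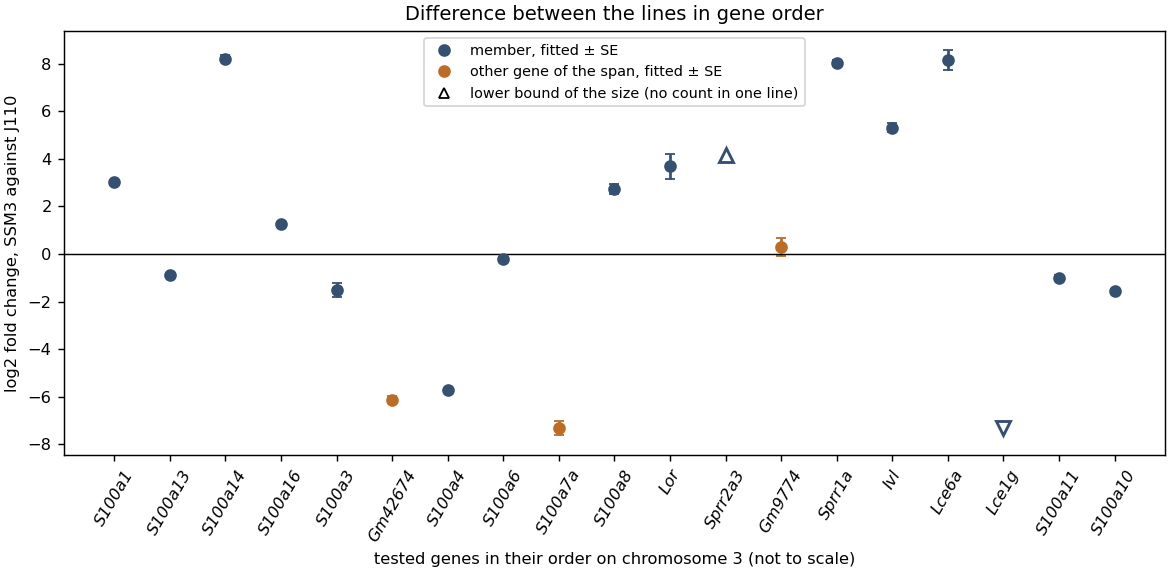
Log2 fold change of SSM3 against J110 for the 16 tested members and the 3 tested other genes of the span, in gene order along chromosome 3 (not to scale), with SE bars. Open triangles are lower bounds for Sprr2a3 and Lce1g, which had no count in a line; the sign changes between neighbours such as S100a1 (3.01) and S100a13 (-0.87).

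The span holds 18 other protein-coding genes, of which 3 passed the filter and 9 had no count. S100a7a (ENSMUSG00000063767), the mouse relative of psoriasin, lies between S100a6 and S100a8 and falls outside the naming rule through its suffix. It had 255, 254 and 231 counts in J110 and 0, 1 and 3 in SSM3 (49.2 ± 1.02 and 0.270 ± 0.303 CPM), a ratio of J110 to SSM3 of 175 with an interval of 68.1 to 644. The edgeR adjusted p was 8.67e-13, with a log2 fold change of -7.33 (SE 0.29), or -8.51 without SSM3 replicate 3. Gm42674, the gene that shares exons with S100a3 and S100a4, had 1052, 798 and 887 counts in J110 and 14, 9 and 14 in SSM3 (log2 fold change -6.11, SE 0.16, edgeR adjusted p = 6.08e-15). Gm9774 did not pass the threshold (log2 fold change 0.30, SE 0.37, edgeR adjusted p = 0.468). Outside chromosome 3, S100pbp, which encodes an S100P binding protein, was higher in SSM3 (24.9 ± 1.85 and 78.1 ± 8.02 CPM, log2 fold change 1.65, SE 0.11, edgeR adjusted p = 7.07e-10), S100b and S100g stayed at 6 counts or fewer in every library, and S100z had none.

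The spread between libraries of a line was compared with that of counting alone. For S100a6 the coefficient of variation was 5.93% in J110 and 5.49% in SSM3, where counting gives 0.63% and 0.70%. It was over 2 times the counting value for S100a4, S100a6 and S100a11 in J110 and for S100a6, S100a10, Sprr1a and Sprr2a3 in SSM3, out of 15 tested members with counts in each line. For the other members the spread was within 2 times that of counting. S100a14 varied by 1.27% in SSM3, under the 2.49% from counting. Sprr2a3 varied by 39.4% in SSM3, against 14% from counting.

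**Figure D4:**
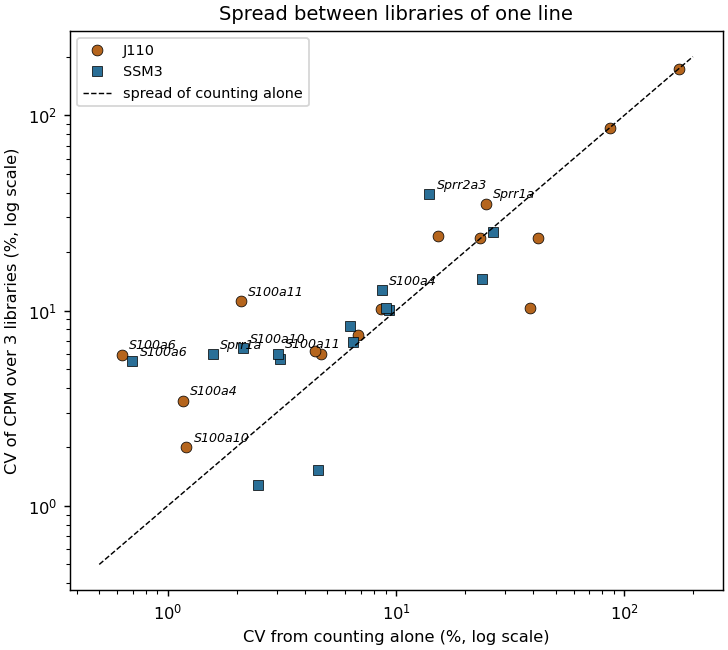
Coefficient of variation of CPM over the 3 libraries of a line against that of counting alone, both in percent on log scales, for the tested members with counts in J110 (circles) and SSM3 (squares). S100a6 lies farthest above the dashed line of equality, at 5.93% and 5.49%, and Sprr2a3 in SSM3 is at 39.4%.

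S100 proteins act through other proteins, and a list of these was examined. Of 29 binding partners and receptors, 16 were tested, 12 were lower, 1 was higher and 3 did not pass the threshold, with a median log2 fold change of -0.80, where 39.2% of all genes tested were lower. Anxa2, which S100a10 joins in a tetramer, had 1658, 1674 and 1635 CPM in J110 and 512, 451 and 510 CPM in SSM3 (log2 fold change -1.75, SE 0.07, edgeR adjusted p = 1.08e-12), beside the -1.56 of S100a10. Ahnak, the giant membrane protein bound by that tetramer, went from 1683 ± 38.8 to 331 ± 4.83 CPM (log2 fold change -2.35, SE 0.07, edgeR adjusted p = 1.24e-14). Anxa1, the partner of S100a11, went from 720 ± 49.7 to 77.9 ± 16.4 CPM (log2 fold change -3.21, SE 0.12, edgeR adjusted p = 2.69e-13), beside the -0.99 of S100a11. Myh9, the myosin heavy chain that S100a4 binds, went from 1054 ± 46.7 to 768 ± 41.0 CPM (log2 fold change -0.46, SE 0.07, edgeR adjusted p = 1.31e-05), beside the -5.71 of S100a4. Mdm2, the ubiquitin ligase of p53, was lower as well (log2 fold change -1.37, SE 0.07, edgeR adjusted p = 3.61e-11). Anxa6, another annexin, was the gene that was higher, from 99.8 ± 9.48 to 482 ± 50.6 CPM (log2 fold change 2.27, SE 0.09, edgeR adjusted p = 1.19e-12). The receptor Ager had 9 counts or fewer in every library.

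Of 32 transcription factors of epidermal differentiation, 23 were tested, 15 were higher in SSM3, 4 were lower and 4 did not pass, with a median log2 fold change of 1.87, where 38.6% of all genes tested were higher. Gata3, a factor of both skin and mammary luminal cells, went from 3.27 ± 0.53 to 1038 ± 86.8 CPM (log2 fold change 8.30, SE 0.13, edgeR adjusted p = 3.57e-17). Ovol1, a repressor that acts as keratinocytes leave the cell cycle, had no count in J110 and 50, 48 and 54 in SSM3, at least 17.8-fold higher (edgeR adjusted p = 6.31e-09). Of the AP-1 genes, Fos, Fosl2, Jun, Junb and Jund were higher in SSM3 and Fosl1 was lower. Fos had a log2 fold change of 3.39 (SE 0.18, edgeR adjusted p = 3.21e-11), Fosl2 of 0.77 and Jun of 0.73. Jund was at a higher level than these (107 ± 1.40 to 391 ± 49.1 CPM, log2 fold change 1.87, SE 0.09, edgeR adjusted p = 9.58e-12). Junb differed little (225 ± 8.92 to 267 ± 41.7 CPM, log2 fold change 0.25, SE 0.09, edgeR adjusted p = 0.0235), and its adjusted p ranged from 0.000796 to 0.162 over the alternatives and missed the threshold without J110 replicate 1 (0.0962), J110 replicate 3 (0.0855) or SSM3 replicate 1 (0.162). Fosl1 was lower in SSM3, with 607, 612 and 491 counts in J110 and 0, 5 and 0 in SSM3 (log2 fold change -8.23, SE 0.29, edgeR adjusted p = 1.69e-13). All its SSM3 counts were in replicate 2, and the log2 fold change was -12.12 without that library and -7.64 without SSM3 replicate 3. Klf4, an activator of terminal differentiation in skin, was lower in SSM3 (84.1 ± 6.38 to 31.8 ± 1.82 CPM, log2 fold change -1.40, SE 0.10, edgeR adjusted p = 1.33e-09). The grainyhead genes Grhl1 and Grhl2 were higher, with log2 fold changes of 4.13 (SE 0.32) and 6.77 (SE 0.42), from at most 7 and 2 counts in the J110 libraries, and Grhl3 had no count. The oxidative stress factor Nfe2l2 was lower too (293 ± 14.1 to 90.2 ± 14.3 CPM, log2 fold change -1.70, SE 0.10, edgeR adjusted p = 1.28e-10).

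Of 36 further cornified envelope and keratinocyte genes, 24 had at most 3 counts in every library and 6 were tested. Krt6a, a keratin of activated and follicular keratinocytes, was higher in SSM3, with 0, 2 and 5 counts in J110 and 492, 564 and 651 in SSM3 (log2 fold change 7.93, SE 0.25, edgeR adjusted p = 3.60e-14). It was 7.33 without J110 replicate 1 and 9.07 without J110 replicate 3. The plakin scaffold genes were higher as well. Evpl (envoplakin) had 3, 3 and 1 counts in J110 and 125, 138 and 145 in SSM3, a ratio of 61.6 with an interval of 29.6 to 154 (edgeR adjusted p = 6.75e-12). Ppl (periplakin) went from 19.3 ± 1.52 to 33.2 ± 2.19 CPM (log2 fold change 0.78, SE 0.13, edgeR adjusted p = 3.83e-05). S100a7a was the gene that was lower, and Krt10 did not pass the threshold (log2 fold change -0.23, SE 0.19, edgeR adjusted p = 0.283), nor did Sbsn. Tgm1, the main transglutaminase of the envelope, had no count in J110 and 10, 10 and 8 in SSM3, and Krt1, Krt2 and Crnn had none in either line.

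**Figure D5:**
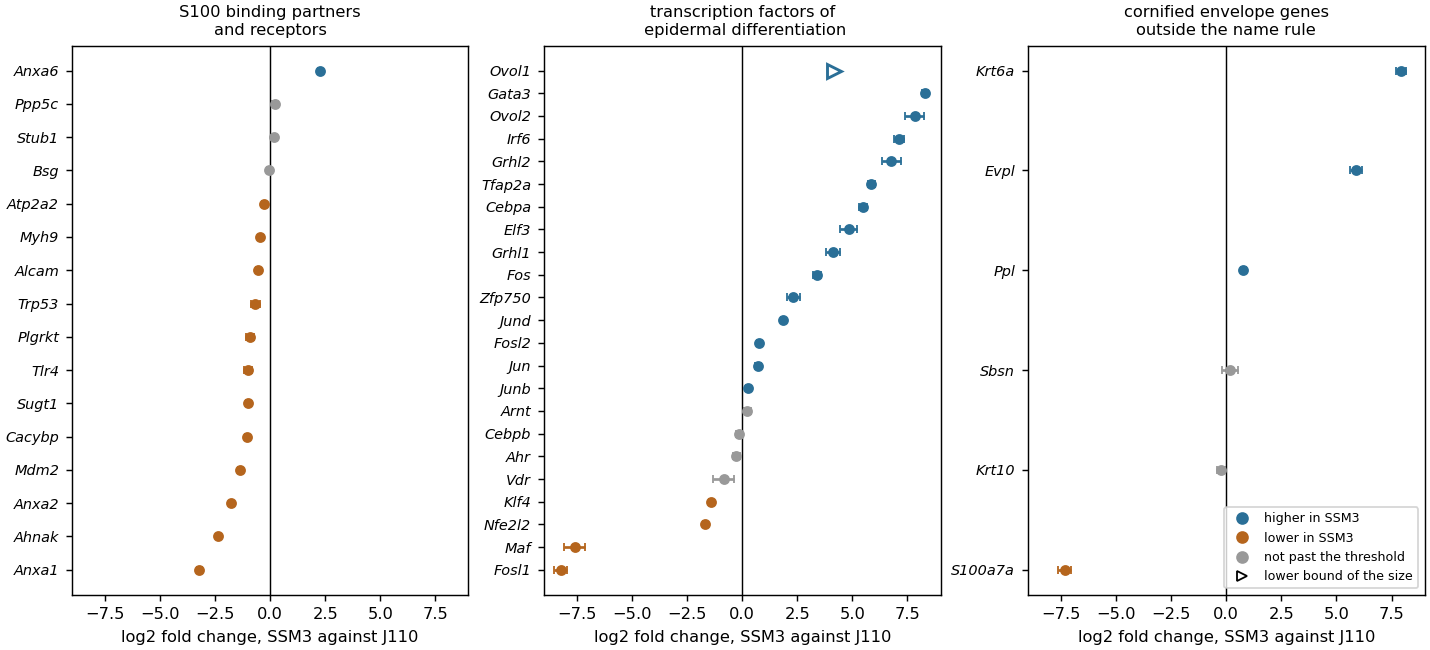
Log2 fold change of SSM3 against J110 with SE bars for the tested genes of 3 lists, ordered by value, with grey points for genes that did not pass the threshold and an open triangle for a lower bound (Ovol1). Of the S100 partners 12 of 16 lie past the threshold on the lower side, of the transcription factors 15 of 23 on the higher side.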

How the data were processed

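RNA from 3 replicates each of J110 and SSM3 cells was sequenced with the QuantSeq 3′ kit. After trimming, the authors aligned the reads to mm10 with HISAT2 (2.0.4), counted them per gene with featureCounts (Subread 2.0.0) and deposited raw counts without normalisation, per the submitters' processing notes and the paper's methods. The strand setting and the handling of reads that map to several genes are not given in the sources used here. Symbols came from GENCODE M21 (GRCm38), which named 99.6% of the identifiers.

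After filterByExpr and TMM scaling, the lines were compared with edgeR's quasi-likelihood test (edgeR 4.0.16, limma 3.58.1, R 4.3.3), with Benjamini-Hochberg adjustment over all 12284 genes tested and a threshold of 0.05. Log2 fold changes are SSM3 minus J110, and the SE is the size of the log2 fold change divided by the square root of F. A fold against a line without counts was set against 3 counts per library. With few counts, the ratio of summed counts has an exact 95% interval, which covers counting error only. TMM factors were 0.920 to 0.958 in J110 and 1.05 to 1.07 in SSM3, and the biological coefficient of variation was 8.30%. If the replicates are not separate cultures, the p-values measure only technical spread.

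The members, the other lists and the tests were chosen with earlier results of these data known. Members with a mean of at least 10 CPM in either line are named with all values, and others where at least 2 libraries of a line had a count. In each other list, the 4 tested genes with the highest mean CPM and, among the rest with at least 10 CPM, the 2 farthest from 0 in log2 fold change are named. Genes outside this rule (S100a5, Sprr1b, Sprr2a1, Sprr2a2, Flg, Flg2, Hrnr, Rptn, Ager, Sbsn, Tgm1, Krt1, Krt2, Crnn, Fos, Fosl2, Jun, Klf4, Grhl1, Grhl2, Grhl3, S100b, S100g, S100z and the marker genes) were chosen once their values had been seen. Alternatives were DESeq2 (1.42.0), limma-voom, library size only, median-ratio size factors, stricter and looser filters, a replicate block and leaving out each library. The test was tried on simulated counts. Some items are not reported here. Shared windows of 75 bases were sought in the last 400 bases of transcripts, exon overlaps with bedtools (2.31.1), and promoters came from RefSeq (51 of 57 members matched). Of 7 melanocyte and Schwann cell markers, 4 were tested, with 2 higher and 1 lower in SSM3 and sums of 17.0 to 29.2 CPM in J110 and 91.5 to 119 in SSM3. Dct, 1 of those 2, had 12, 20 and 28 counts in J110 and 202, 31 and 16 in SSM3, so the lines overlapped. Its log2 fold change was 2.15 (edgeR adjusted p = 0.0113), and 0.28 (adjusted p = 0.528) without SSM3 replicate 1, where Sox10 also stood apart with 12 counts against 3 and 0. Over the alternatives the adjusted p of Dct ranged from 2.34e-21 to 0.528, and its call was also lost with DESeq2, with limma-voom and without J110 replicate 1 or 2.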

Additional observations from a re-analysis of the deposited data

How the results depend on the processing

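The 9 higher and 7 lower members kept their direction and call under every alternative that tested them, except S100a6, whose call was lost with library size only, without SSM3 replicate 2, and with J110 replicate 3 and SSM3 replicate 2 both left out. That last setting was chosen after seeing the data. Junb lost its call without J110 replicate 1, J110 replicate 3 or SSM3 replicate 1. No value reversed.

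Counts moved mostly with the filter, since it sets which genes are tested. With at least 10 counts in every library, 4 members were higher, 0 cornified envelope genes lower and 1 higher, 6 transcription factors higher and 2 lower, and 0 chromosome 3 neighbours lower. With at least 1 count in any library, 12 members were lower (S100a9, Sprr2k, Lce1f, Lce1h and Crct1 added), 5 cornified envelope genes higher, 2 partners higher and 1 neighbour higher. With library size only, 3 partners were higher and the log2 ratio of summed S100a CPM was -0.38 (the cause was not tested). With J110 replicate 3 and SSM3 replicate 2 both left out, 2 partners were higher, and with Gm42674 added to S100a4, 1 neighbour was lower. Leaving out each library gave 3 to 5 higher cornified envelope genes (5 without any J110 library), 1 to 2 higher partners (2 without J110 replicate 2 or 3) and 0 to 1 higher neighbours (1 without SSM3 replicate 1).

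DESeq2 called 8948 of all genes and limma-voom 9558, against 9566. Same-numbered samples did not deviate together (correlations 0.0118, 0.0155 and 0.0268), so the numbers pair nothing. With the replicate block 4705 genes were higher and 4776 lower, 9481 in all, and it changed no count of a list. At these depths 34 of the 57 members had 3 counts or fewer in every library, 20 of them none, so a difference between the lines in these was not detectable.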
